A study of Mus musculus with 14 samples.

Results

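The genes described here code for the proteasome, the barrel-shaped protease that degrades ubiquitin-tagged proteins, together with its caps, its assembly chaperones and the subunits of its immune form. They were taken as the rows of the count table whose mouse symbol begins with Psma, Psmb, Psmc, Psmd, Psme, Psmf or Psmg followed by a number, with a mean CPM (counts scaled to the library total) of 1 or more over the libraries and a position off the X chromosome. Of 55487 gene rows, 54 matched the symbol pattern and 48 were kept. The 5 genes of the immune form (Psmb8, Psmb9, Psmb10, Psme1 and Psme2) were set against the other 43. Psmd10, Psmb6-ps and Psmb7-ps2 lie on the X chromosome, and Psmb11, Psmb5-ps and Psmb6-ps2 had means under 1 CPM. Psma8, at 1.02 CPM, was the kept gene nearest to the minimum. Psmc3ip matches the pattern by its name but codes for a cofactor of meiotic recombination, and Psme2b is a near-copy of Psme2, so reads may be split between those 2 genes and both counts are uncertain to that extent.

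RNA-seq had been made of monocytes purified with an isolation kit from mouse leg bone marrow, which the labels give as 90-95% pure. Cells were held for 3 h with IL-4 at 20 ng/mL, the cytokine that drives alternative activation, or in medium without it. Libraries labelled AhR-deficient, for the ligand-activated transcription factor AhR, comprised 3 with IL-4 and 3 in medium (numbers 4, 5 and 6 in each), and wild-type libraries comprised 4 with IL-4 and 4 in medium (numbers 1, 2, 3 and 7 in each). The labels give no strain, age or AhR allele, and do not say whether a number is 1 animal or a pool, so p-values measure the spread between these samples.

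The core particle of the proteasome is built of stacked rings of alpha and beta subunits, and peptide bonds are cut inside it by the beta subunits Psmb5, Psmb6 and Psmb7. In cells exposed to interferon, and constitutively in many blood cells, newly assembled particles carry Psmb8, Psmb9 and Psmb10 in their place, and the PA28 activator made of Psme1 and Psme2 docks at their ends. This immunoproteasome is known for producing peptides that fit MHC class I.

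Total counts were 33432502 to 42885079 per library, and the 48 genes took 0.415% to 0.494% of them. All 8 monocyte markers were detected in every library, with summed levels of 5873 to 6431 CPM in AhR-deficient IL-4 libraries, 8025 to 8910 in AhR-deficient medium, 6657 to 7121 in wild-type IL-4 and 8068 to 8615 in wild-type medium. Ahr itself went against the label. It was at 45.2, 43.7 and 36.9 CPM in AhR-deficient IL-4 libraries and 26.1, 21.0 and 15.7 in AhR-deficient medium, against 23.7, 26.3, 26.9 and 25.3 in wild-type IL-4 and 11.4, 14.4, 11.9 and 14.4 in wild-type medium. The AhR-deficient libraries were thus higher by 0.72 ± 0.14 (log2, SE) in IL-4 (edgeR adjusted p = 0.027) and by 0.69 ± 0.14 in medium (edgeR adjusted p = 0.0144). A gene total cannot show a deletion that leaves most of the transcript in place. All 6 AhR-deficient libraries had Xist at 987 CPM or more and no count of the Y-linked Ddx3y, whereas the 8 wild-type libraries had Xist at 2.12 CPM or less and Ddx3y at 114 CPM or more. Genotype and sex type therefore cannot be told apart in any genotype comparison.

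Promoter windows of 300 bases, from 250 before to 50 after the RefSeq start, were read. Windows are shown for Psmb8, Psmb9, Psmb10, Psme1, Psmb5 and Psmg1. Those of other genes, among them Psme2, Psmb6, Psmb7 and Psme3, are not shown. All windows came from RefSeq on GRCm38.p6, and 40 of the 48 genes had at least 1 window (43 windows). Each is written 5′ to 3′ on the gene's strand, with motif matches in capitals. Psmb8 lies at chr17:34197945-34198244 (plus strand) and Psmb9 at chr17:34187281-34187580 (minus strand). Psmb10 lies at chr8:105938343-105938642 (minus strand), Psme1 at chr14:55578244-55578543 (plus strand), Psmb5 at chr14:54617946-54618245 (minus strand) and Psmg1, the gene with the largest IL-4 response of the set, at chr16:95990911-95991210 (minus strand).
Psmb8: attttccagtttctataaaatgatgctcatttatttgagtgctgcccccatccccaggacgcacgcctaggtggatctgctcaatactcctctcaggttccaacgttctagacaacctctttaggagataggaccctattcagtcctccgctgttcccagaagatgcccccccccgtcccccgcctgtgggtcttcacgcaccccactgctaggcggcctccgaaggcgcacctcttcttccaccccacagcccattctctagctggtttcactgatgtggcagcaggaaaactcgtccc
Psmb9: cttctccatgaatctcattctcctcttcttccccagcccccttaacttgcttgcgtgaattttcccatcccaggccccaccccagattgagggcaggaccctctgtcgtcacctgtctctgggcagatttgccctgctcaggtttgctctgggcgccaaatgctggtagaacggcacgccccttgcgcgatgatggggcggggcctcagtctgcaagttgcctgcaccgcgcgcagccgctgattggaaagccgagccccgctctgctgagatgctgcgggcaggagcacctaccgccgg
Psmb10: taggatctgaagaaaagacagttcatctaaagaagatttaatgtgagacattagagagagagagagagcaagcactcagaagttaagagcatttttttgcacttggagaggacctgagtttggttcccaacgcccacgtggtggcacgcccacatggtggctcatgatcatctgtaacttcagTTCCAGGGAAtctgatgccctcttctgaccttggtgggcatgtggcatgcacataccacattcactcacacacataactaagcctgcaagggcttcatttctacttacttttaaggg
Psme1: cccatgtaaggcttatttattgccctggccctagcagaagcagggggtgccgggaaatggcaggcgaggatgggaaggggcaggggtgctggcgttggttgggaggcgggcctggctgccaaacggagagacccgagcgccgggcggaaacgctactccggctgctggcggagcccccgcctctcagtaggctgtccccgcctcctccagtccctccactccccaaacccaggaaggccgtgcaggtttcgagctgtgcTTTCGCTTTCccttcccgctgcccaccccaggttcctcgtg
Psmb5: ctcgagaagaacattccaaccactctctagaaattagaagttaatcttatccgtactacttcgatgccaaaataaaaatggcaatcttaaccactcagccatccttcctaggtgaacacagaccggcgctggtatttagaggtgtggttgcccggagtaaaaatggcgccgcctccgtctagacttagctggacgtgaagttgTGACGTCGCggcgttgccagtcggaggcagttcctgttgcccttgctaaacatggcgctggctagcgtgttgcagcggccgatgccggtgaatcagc
Psmg1: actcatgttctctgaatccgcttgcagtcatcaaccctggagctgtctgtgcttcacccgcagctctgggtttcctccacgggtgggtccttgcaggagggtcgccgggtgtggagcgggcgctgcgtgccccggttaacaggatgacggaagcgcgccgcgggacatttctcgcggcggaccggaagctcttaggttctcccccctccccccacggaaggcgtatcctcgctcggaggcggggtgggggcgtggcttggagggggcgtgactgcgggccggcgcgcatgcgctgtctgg

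The motifs were searched on both strands. They were the interferon-regulatory-factor type (GAAA, any 2 bases, GAAA), the STAT6 type with 4 bases between TTC and GAA, and the antioxidant-response type TGACNNNGC bound by NRF2-family factors with small MAF proteins. Among the 32851 promoter windows of the table they were present in 3.44%, 6.95% and 12.4%. Among the 43 windows of the set they were present in 5, 1 and 6. In the windows shown, Psmb10 held the set's STAT6 type from 67 to 58 bases before its start. Psme1 held the interferon type from 9 to 18 bases after its RefSeq start, in reverse orientation. Psmb5 held the antioxidant type from 47 to 39 bases before its start. Among windows not shown, Psmb6 held the antioxidant type from 9 to 1 bases before its start, and Psme4 held it across its start. None of the 3 letter patterns was in the windows of Psmb8, Psmb9 and Psmg1. In GENCODE M21 the gene starts of Psmb8 (34197721), Psmb9 (34187764, minus strand) and Psme1 (55578123) lie upstream of their windows. These windows thus lie wholly inside the genes, and the bases before the GENCODE starts were not in them. Of the Psmb9 window, 275 bases are also the window of Tap1, the peptide transporter gene that runs head to head with Psmb9. A match is a string of letters in a window and shows no binding.

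Levels per kilobase of the principal transcript put the immune genes among the constitutive ones. Averaged over the libraries, Psma7, an alpha-ring subunit, was highest at 223 CPM per kb, followed by the non-catalytic beta subunit Psmb4 at 140 and Psme1 at 134. Of the immune genes, Psme2 followed at 111 CPM per kb, Psmb8 at 74.6, Psmb10 at 62.6 and Psmb9 at 24.1. The constitutive Psmb6 averaged 131 CPM per kb, Psmb7 99.1 and Psmb5 52.5. The 6 assembly chaperones ran from 5.7 to 19.8 CPM per kb, and Psma8, a core subunit known from testis, was at 0.607. The 5 immune genes held 9.59% to 12.7% of the counts of the set in the single libraries.

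None of the 3 immunoproteasome subunits was called with IL-4 in wild-type cells in the model without the number as a block. With the block all 3 were called higher, by small differences, and the calls of Psmb9 and Psmb10 rested on single numbers. Psmb8, the counterpart of Psmb5, was at 134, 122, 116 and 118 CPM in wild-type IL-4 libraries (numbers 1, 2, 3 and 7), against 124, 103, 101 and 88.7 CPM in wild-type medium. The groups overlapped, because number 1 in medium was above 3 of the IL-4 libraries, while within each number IL-4 was higher. In the model without the block the change was 0.23 ± 0.12 (log2, SE; 1.18-fold; edgeR adjusted p = 0.14). With the block it was 0.24 ± 0.05 (edgeR adjusted p = 0.00232), and it stayed called in the block model with each wild-type number left out in turn (edgeR adjusted p of 0.00113 to 0.0181).

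Psmb9, the counterpart of Psmb6, was at 34.7, 34.9, 28.7 and 33.1 CPM in wild-type IL-4, against 35.6, 27.4, 24.5 and 20.8 CPM in wild-type medium. It was higher with IL-4 in numbers 2, 3 and 7 and not in number 1, whose medium library was the highest of its group. The log2 change was 0.28 ± 0.16 without the block (edgeR adjusted p = 0.185) and 0.30 ± 0.09 with it (edgeR adjusted p = 0.0209). The block call was lost without number 2, number 3 or number 7 (edgeR adjusted p of 0.093, 0.0516 and 0.0739). Without the medium library of number 1 alone, Psmb9 reached 0.44 ± 0.14 (edgeR adjusted p = 0.0251) and Psmb8 0.33 ± 0.11 (edgeR adjusted p = 0.037) in the model with no block. Psmb9 and Tap1 also overlap on opposite strands. The library kit is stranded, but the strand setting of the counting is not given in the sources used here, so reads of the overlap cannot be assigned to either gene with certainty.

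Psmb10, the counterpart of Psmb7, was at 86.4, 78.0, 86.1 and 75.3 CPM in wild-type IL-4, against 80.9, 68.5, 72.4 and 72.1 CPM in wild-type medium. All 4 numbers were higher with IL-4, and the groups overlapped. The log2 change was 0.15 ± 0.10 without the block (edgeR adjusted p = 0.265) and 0.15 ± 0.05 with it (edgeR adjusted p = 0.0295), and the block call of Psmb10 was lost without number 2 (edgeR adjusted p = 0.139) or number 3 (edgeR adjusted p = 0.158).

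In the AhR-deficient libraries no gene of the immune form was called without the block. Psmb8 was at 122, 127 and 162 CPM with IL-4 (numbers 4, 5 and 6), against 118, 114 and 151 CPM in medium, a log2 change of 0.11 ± 0.13 (edgeR adjusted p = 0.625). Psmb9 was at 35.4, 35.3 and 45.7 CPM with IL-4, against 30.4, 28.2 and 40.7 CPM in medium (log2 change 0.23 ± 0.18; edgeR adjusted p = 0.382). Both were higher with IL-4 in each of the 3 numbers, and both groups overlapped because number 6 was high in both conditions. Psmb10 was at 86.4, 82.4 and 102 CPM with IL-4, against 87.5, 71.0 and 99.4 CPM in medium (log2 change 0.07 ± 0.11; edgeR adjusted p = 0.71). The IL-4 response did not differ detectably between the genotypes for these genes: the difference of the responses, AhR-deficient minus wild type, was -0.13 for Psmb8, -0.05 for Psmb9 and -0.08 for Psmb10, each with an edgeR adjusted p of 1.

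**Figure D1:**
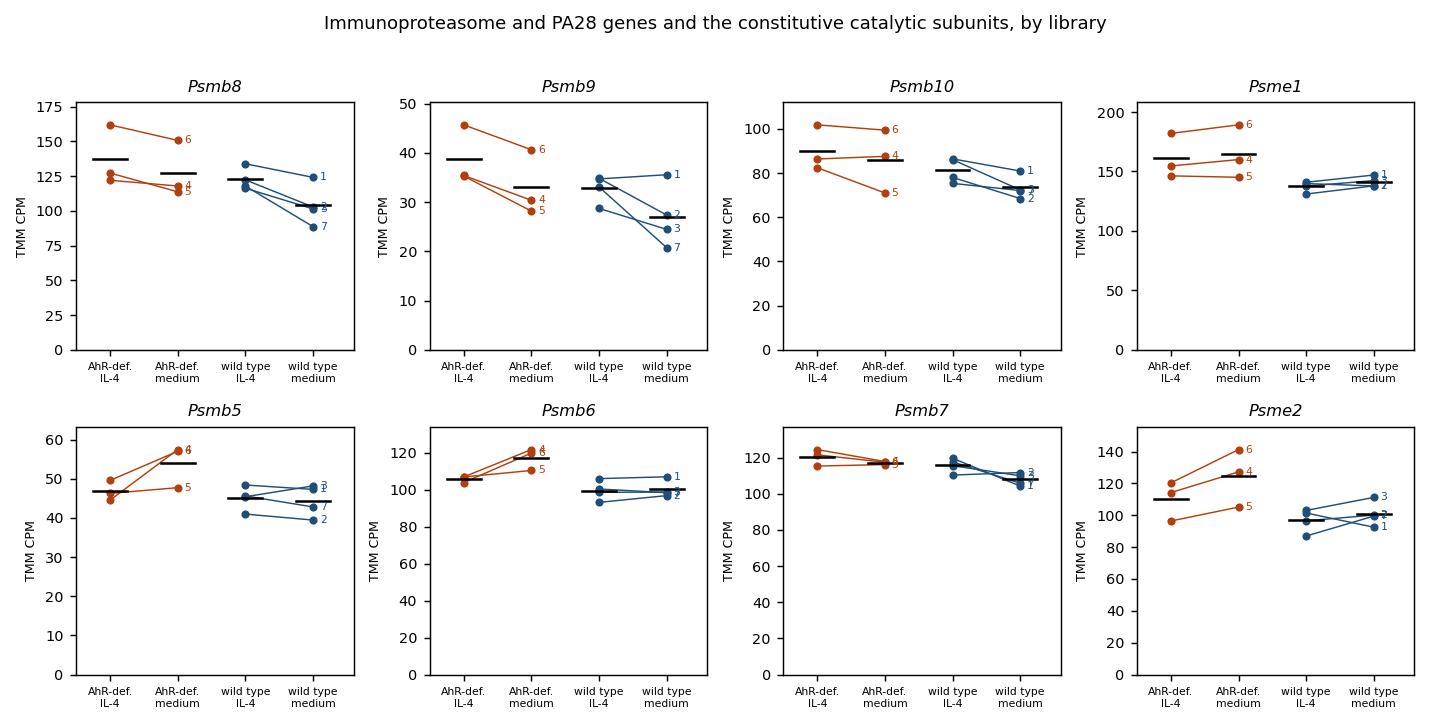
CPM scaled by the trimmed mean of M-values (TMM) in each library for the 5 immune-form genes and the 3 constitutive catalytic subunits, with AhR-deficient groups left of wild-type groups and IL-4 left of medium. Points are libraries, lines join libraries of the same number (written beside the medium point), and black bars are group means; number 6 is the highest AhR-deficient library in both conditions for Psmb8, Psmb9, Psmb10, Psme1 and Psme2.

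The estimates of the PA28 pair lay below 0 in both genotypes, and neither gene was called without the block. Psme1, the alpha chain of the activator, was at 155, 146 and 182 CPM in AhR-deficient IL-4 and 160, 145 and 189 in AhR-deficient medium. In wild type it was at 141, 140, 138 and 131 CPM with IL-4 and 147, 138, 142 and 138 in medium. The IL-4 changes were -0.03 ± 0.09 in AhR-deficient (edgeR adjusted p = 0.836) and -0.04 ± 0.08 in wild type (edgeR adjusted p = 0.738). Psme2, the beta chain, was at 114, 96.4 and 120 CPM in AhR-deficient IL-4, against 127, 105 and 141 CPM in AhR-deficient medium. It was lower with IL-4 in all 3 numbers, with a log2 change of -0.18 ± 0.11 (edgeR adjusted p = 0.268) that was called with the block (-0.17 ± 0.06; edgeR adjusted p = 0.0433). The block call of Psme2 was lost without number 4, number 5 or number 6 (edgeR adjusted p of 0.0962 to 0.228). In wild type Psme2 was at 101, 96.5, 103 and 86.9 CPM with IL-4, against 92.5, 100, 111 and 99.5 CPM in medium (log2 change -0.06 ± 0.09; edgeR adjusted p = 0.696), and it was called lower there in the block model without number 1 (-0.13; edgeR adjusted p = 0.0366).

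Of the constitutive catalytic subunits none was called in wild type. There Psmb5 was at 48.4, 41.0, 45.4 and 45.6 CPM with IL-4, against 47.3, 39.5, 48.2 and 42.8 CPM in medium (log2 change 0.02 ± 0.08; edgeR adjusted p = 0.869). Psmb6 changed by -0.01 ± 0.05 (edgeR adjusted p = 0.902) and Psmb7 by 0.10 ± 0.04 (edgeR adjusted p = 0.0689). In AhR-deficient libraries Psmb5 was at 44.6, 46.3 and 49.6 CPM with IL-4, against 57.5, 47.7 and 57.0 CPM in medium. Psmb6 was at 107, 107 and 104 CPM with IL-4, against 122, 110 and 120 CPM in medium, with no overlap. Their log2 changes of -0.21 ± 0.09 for Psmb5 (edgeR adjusted p = 0.105) and -0.15 ± 0.06 for Psmb6 (edgeR adjusted p = 0.0688) were called lower with the block (edgeR adjusted p = 0.0259 and 0.0264). Both block calls were lost without number 4 or number 6 (edgeR adjusted p of up to 0.214 for Psmb5 and 0.19 for Psmb6). Psmb7 changed by 0.04 ± 0.05 (edgeR adjusted p = 0.588). Psmb7 overlaps Nek6 on the opposite strand, with the same limit on counting as for Psmb9. That limit also holds for Psma3 (with 3110056K07Rik), Psmc3 (Slc39a13), Psmc3ip (Mlx), Psmd13 (Sirt3) and Psme1 (Emc9).

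Ratios of CPM per kilobase put each immune gene against its constitutive counterpart within a library, which removes the library's scaling. Psmb8 to Psmb5 was 1.51, 1.52 and 1.80 in AhR-deficient IL-4, against 1.13, 1.32 and 1.46 in AhR-deficient medium, with no overlap. In wild type it was 1.53, 1.65, 1.41 and 1.43 with IL-4, against 1.45, 1.44, 1.16 and 1.14 in medium, where the groups overlapped. The ratio was higher with IL-4 in 7 of 7 numbers. The log2 difference was 0.31 in AhR-deficient (pooled SD 0.17) and 0.22 in wild type (pooled SD 0.15).

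Psmb9 to Psmb6 was higher with IL-4 in 6 of 7 numbers, number 1 excepted. It averaged 0.217 ± 0.037 (SD, n = 3) in AhR-deficient IL-4 and 0.166 ± 0.030 in AhR-deficient medium, and 0.195 ± 0.020 (SD, n = 4) in wild-type IL-4 and 0.159 ± 0.031 in wild-type medium. Psmb10 to Psmb7 was higher in 3 of 7 numbers and lower in 4, with means of 0.661 and 0.649 in AhR-deficient IL-4 and medium and 0.622 and 0.603 in wild-type IL-4 and medium. The ratio of the PA28 pair to Psme3, the nuclear homologue that forms an activator of its own, moved the other way and was lower with IL-4 in 7 of 7 numbers. It was 3.51, 3.27 and 4.09 in AhR-deficient IL-4, against 4.52, 4.26 and 5.74 in AhR-deficient medium, and 3.61, 3.54, 3.40 and 3.15 in wild-type IL-4, against 4.62, 4.23, 4.34 and 3.98 in wild-type medium. The groups did not overlap in either genotype, and most of the shift lay in Psme3. These ratios are descriptions, with no test.

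**Figure D2:**
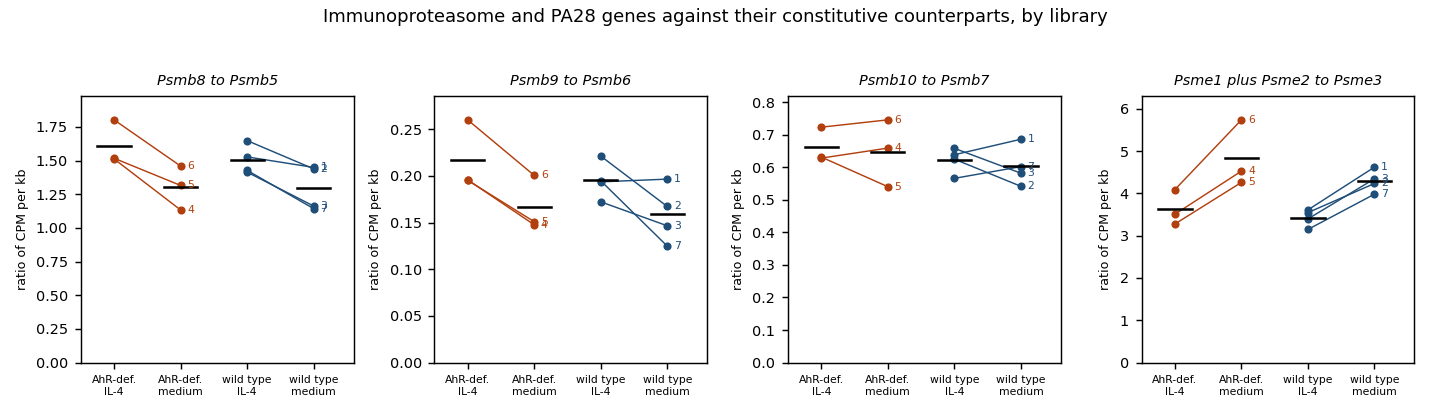
Ratio of CPM per kilobase between each immune-form gene and its constitutive counterpart in each library, with AhR-deficient groups left of wild-type groups and IL-4 left of medium. Points are libraries, lines join libraries of the same number and black bars are group means; Psmb8 to Psmb5 was higher with IL-4 in 7 of 7 numbers and the PA28 pair to Psme3 was lower in 7 of 7.

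Without the block, every gene of the set called with IL-4 was higher, except Psma1, which was lower in wild type. In AhR-deficient libraries 9 of the 48 genes were called higher with IL-4 (adjusted p under 0.05), where 15.4% of all 14754 genes tested were, and 0 were called lower, where 14.2% of all genes were. The remaining 39 were not called, and 15 of the 48 had an unadjusted p under 0.05, where 38.4% of all genes did. In wild type 14 were called higher, where 19.4% of all genes were, 1 was called lower, where 16.5% of all genes were, and 33 were not called. There 22 of the 48 had an unadjusted p under 0.05, where 43.8% of all genes did. All 9 genes called higher in AhR-deficient were among the 14 of wild type. The median log2 change was 0.04 in AhR-deficient and 0.09 in wild type, beside -0.0091 and 0.0089 for all genes. A difference in response between the genotypes was not detected for any gene of the set. For the interaction 0 of 48 were called in either direction (0% of all genes), and 1 had an unadjusted p under 0.05, beside 3.78% of all genes. With the block, which raised the calls over all genes too, 10 were higher and 5 lower in AhR-deficient, where 18.4% and 17.8% of all genes were. In wild type 20 were higher and 2 lower with the block, where 22.8% and 19.9% of all genes were. The genes gained in AhR-deficient were Psma4 higher and Psma7, Psmb5, Psmb6, Psmd8 and Psme2 lower. Those gained in wild type were Psmb8, Psmb9, Psmb10, Psmc3, Psmc5 and Psmd14 higher and Psma7 lower. Of the gained calls, those of Psma7 in both genotypes and Psmb8 in wild type were kept with each number left out in turn, and the other 10 were lost at least once.

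**Figure D3:**
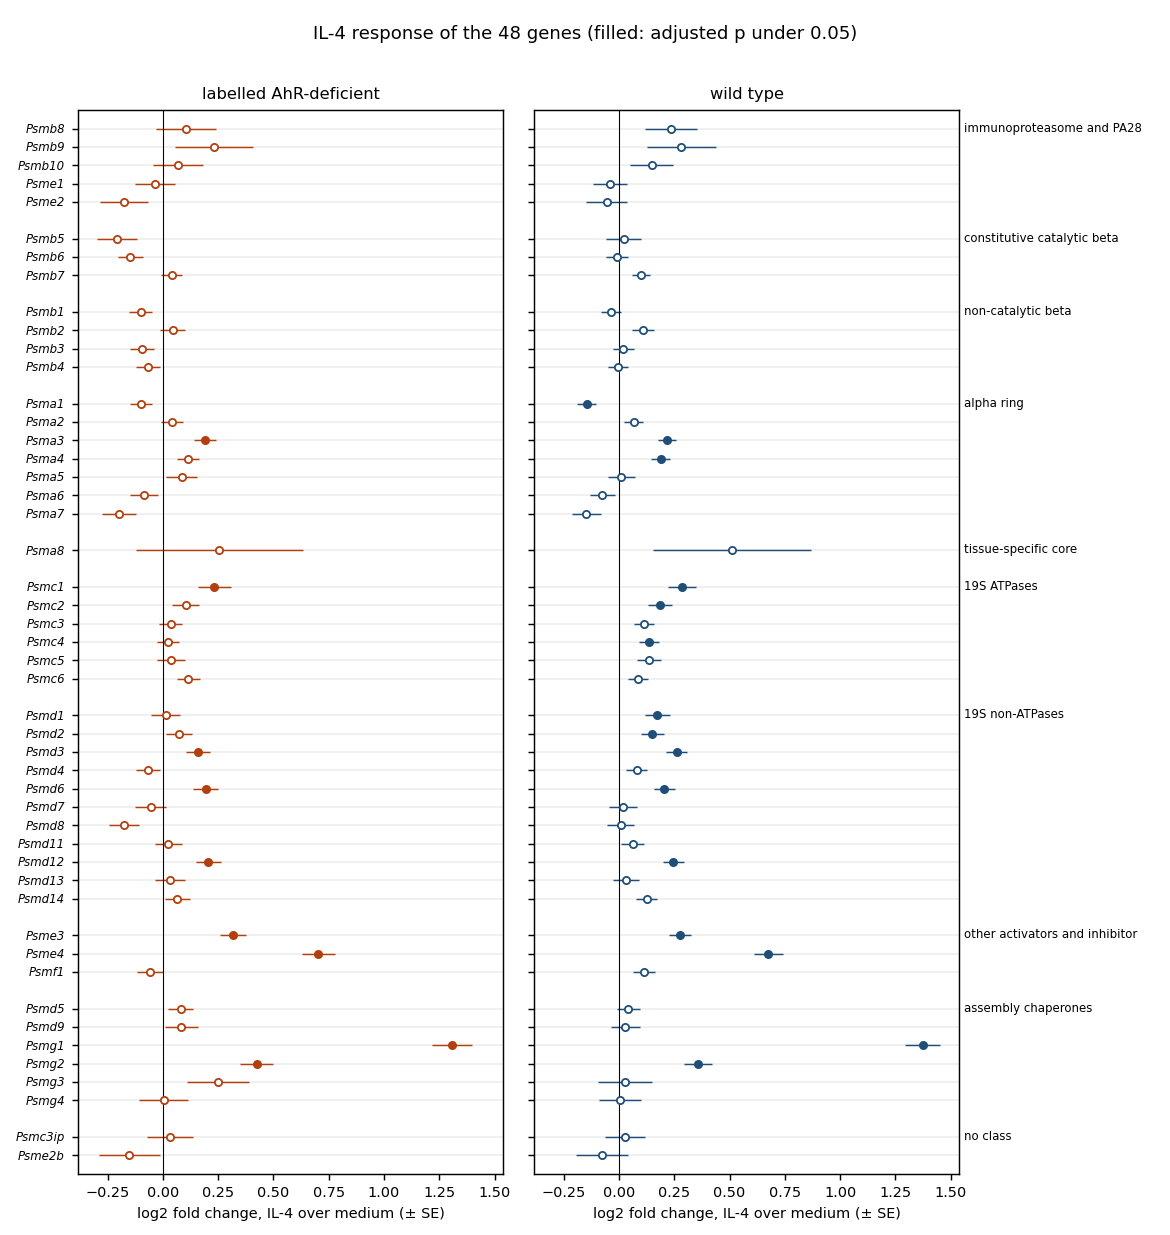
Log2 fold change of IL-4 over medium (x axis, with SE) of the 48 genes by role, in AhR-deficient (left) and wild-type libraries (right). Filled points have an adjusted p under 0.05 in edgeR's quasi-likelihood test without the block; Psmg1 and Psme4 stand to the right of all other genes in both panels.

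Psmg1 and Psmg2 code for the chaperone dimer on which the alpha ring is assembled. Psmg1 had the largest change of the set. It was at 18.3, 16.1 and 15.2 CPM in AhR-deficient IL-4, against 6.43, 6.81 and 6.79 CPM in AhR-deficient medium, a 2.47-fold rise (log2 1.31 ± 0.09; edgeR adjusted p = 1.1e-07). In wild type it was at 17.2, 16.0, 15 and 17.8 CPM with IL-4, against 6.46, 5.95, 6.95 and 6.13 CPM in medium, a 2.59-fold rise (log2 1.37 ± 0.08; edgeR adjusted p = 9.5e-09). Every IL-4 library of Psmg1 was above every medium library. Its partner Psmg2 was at 18.5, 19.7 and 17.4 CPM in AhR-deficient IL-4, against 14.3, 13.9 and 13.2 CPM in AhR-deficient medium (log2 0.43 ± 0.08; edgeR adjusted p = 6.41e-04). In wild type Psmg2 was at 17.0, 15.7, 17.3 and 17.7 CPM with IL-4, against 14.3, 12.6, 13.7 and 12.3 CPM in medium (log2 0.36 ± 0.07; edgeR adjusted p = 6.64e-04). The other chaperones were not called in either genotype. Psmg3 and Psmg4, the second chaperone pair of the ring, had log2 changes of 0.25 and 0.00 in AhR-deficient and 0.03 and 0.00 in wild type. Psmd5 and Psmd9, chaperones of the cap's base, had changes of 0.08 each in AhR-deficient and 0.04 and 0.03 in wild type.

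Among the activators, Psme4, the large nuclear activator also known as PA200, was at 230, 230 and 239 CPM in AhR-deficient IL-4, against 138, 145 and 147 CPM in AhR-deficient medium (1.63-fold; log2 0.70 ± 0.08; edgeR adjusted p = 7.88e-06). In wild type it was at 203, 211, 221 and 241 CPM with IL-4, against 120, 145, 146 and 137 CPM in medium (1.6-fold; log2 0.68 ± 0.07; edgeR adjusted p = 2.07e-06). The groups stood apart in both genotypes. Psme3 was at 196, 189 and 188 CPM in AhR-deficient IL-4, against 163, 150 and 147 CPM in AhR-deficient medium (log2 0.32 ± 0.06; edgeR adjusted p = 8.72e-04), and at 171, 170, 181 and 176 CPM in wild-type IL-4, against 132, 144, 149 and 152 CPM in wild-type medium (log2 0.28 ± 0.05; edgeR adjusted p = 6.49e-04). Psmf1, which binds and inhibits the core particle in vitro, was not called, with changes of -0.06 in AhR-deficient and 0.11 in wild type.

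**Figure D4:**
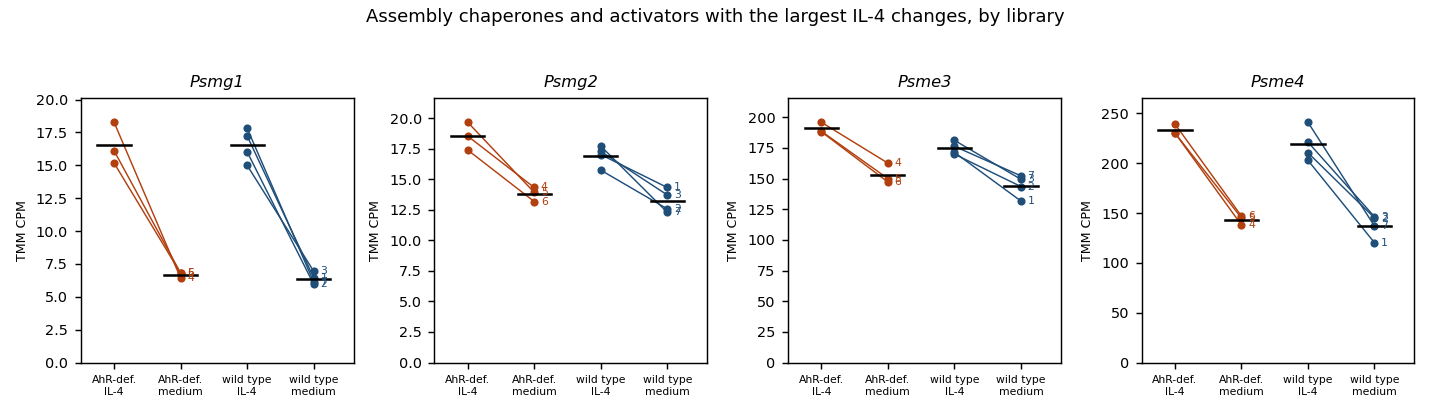
TMM-scaled CPM of Psmg1, Psmg2, Psme3 and Psme4 in each library, with AhR-deficient groups left of wild-type groups and IL-4 left of medium. Points are libraries, lines join libraries of the same number and black bars are group means; for these 4 genes the IL-4 libraries lie above the medium libraries of the same genotype without overlap.

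Of the 17 subunits of the regulatory cap, which recognises and unfolds ubiquitin-tagged proteins, 4 were called higher with IL-4 in AhR-deficient and 8 in wild type. Over all genes the shares called higher were 15.4% and 19.4%. No cap subunit was called lower in either genotype (0 of 17), where 14.2% and 16.5% of all genes were. The 4 called in both were Psmc1, an ATPase of the base, and Psmd3, Psmd6 and Psmd12 of the lid. Psmc1 was at 166, 151 and 152 CPM in AhR-deficient IL-4, against 142, 123 and 134 CPM in AhR-deficient medium (log2 0.23 ± 0.07; edgeR adjusted p = 0.0275). In wild type Psmc1 was at 146, 139, 152 and 149 CPM with IL-4, against 107, 121, 130 and 122 CPM in medium (log2 0.29 ± 0.06; edgeR adjusted p = 0.00283). Psmd12 rose by 0.21 ± 0.06 in AhR-deficient (edgeR adjusted p = 0.0125) and 0.25 ± 0.05 in wild type (edgeR adjusted p = 0.0012). Psmd6 rose by 0.19 ± 0.06 (edgeR adjusted p = 0.0167) in AhR-deficient and 0.21 ± 0.05 (edgeR adjusted p = 0.00412) in wild type. Psmd3 rose by 0.16 ± 0.05 (edgeR adjusted p = 0.035) in AhR-deficient and 0.26 ± 0.05 (edgeR adjusted p = 4.45e-04) in wild type. The other 4 of wild type were Psmc2 (log2 0.19; edgeR adjusted p = 0.0139), Psmd1 (log2 0.17; edgeR adjusted p = 0.0288), Psmc4 (log2 0.13; edgeR adjusted p = 0.0305) and Psmd2 (log2 0.15; edgeR adjusted p = 0.0324). Psmd1 and Psmd2 are the large scaffold proteins of the base. With 1 of the 8 wild-type libraries left out in turn, Psmc2 lost its call once (without IL-4 library 1), Psmd1 7 times (medium library 3 was the exception), Psmc4 4 times (IL-4 libraries 1 and 7, medium libraries 2 and 3) and Psmd2 4 times (IL-4 libraries 3 and 7, medium libraries 1 and 2), with edgeR adjusted p of up to 0.051, 0.0754, 0.136 and 0.0994. In AhR-deficient, leaving out medium library 5 ended the calls of Psmc1, Psmd3, Psmd6 and Psmd12. IL-4 library 4 did so for Psmc1 and Psmd6, medium library 6 for Psmc1 and Psmd3, and IL-4 libraries 5 and 6 for Psmd3 (edgeR adjusted p of up to 0.12, 0.155, 0.0786 and 0.055 for Psmc1, Psmd3, Psmd6 and Psmd12). All 17 cap genes had a positive estimate in wild type and 14 of 17 in AhR-deficient.

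Core subunits were called in both directions in wild type. Of the core's 14 subunits other than the immune ones and Psma8, 1 was called higher and 0 lower in AhR-deficient. Of all genes 15.4% and 14.2% were. In wild type 2 were called higher and 1 lower, where 19.4% and 16.5% of all genes were. Psma3, of the alpha ring that gates the core, was at 113, 104 and 112 CPM in AhR-deficient IL-4, against 94.9, 93.1 and 100.0 CPM in AhR-deficient medium (log2 0.19 ± 0.05; edgeR adjusted p = 0.00824). In wild type it was at 108, 103, 110 and 104 CPM with IL-4, against 94.7, 91.2, 91.5 and 88.5 CPM in medium (log2 0.22 ± 0.04; edgeR adjusted p = 9.97e-04). Psma4 of the same ring was higher by 0.19 ± 0.04 in wild type (edgeR adjusted p = 0.00297) and 0.11 ± 0.05 in AhR-deficient, where it was called with the block (edgeR adjusted p = 0.0478) but not once 1 number was left out (edgeR adjusted p of 0.123 to 0.184). Psma1 was the one gene lower in wild type, at 155, 151, 143 and 154 CPM with IL-4, against 168, 175, 158 and 165 CPM in medium (log2 -0.15 ± 0.04; edgeR adjusted p = 0.0151), and it was lower in 7 of 7 numbers. The Psma1 call was lost without IL-4 library 3 or medium library 2 (edgeR adjusted p of up to 0.0531). Psma7 was also lower with IL-4 in 7 of 7 numbers and was called lower in both genotypes with the block, by -0.20 ± 0.04 in AhR-deficient (edgeR adjusted p = 0.00454) and -0.15 ± 0.04 in wild type (edgeR adjusted p = 0.00964). None of the 4 non-catalytic beta subunits was called, with changes from -0.10 to 0.04 in AhR-deficient and -0.04 to 0.11 in wild type. Psma8, Psmc3ip and Psme2b were not called in either genotype.

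Between genotypes, most estimates lay on the AhR-deficient side, 38 of 48 in IL-4 and 44 of 48 in medium, while few were called. In IL-4, 0 of 48 genes were called in either direction, where 0.956% of all genes were called higher and 0.664% lower. There 4 of the 48 had an unadjusted p under 0.05, where 18.4% of all genes did. The smallest adjusted p belonged to Psme1, which was higher by 0.23 ± 0.08 without overlap (edgeR adjusted p = 0.17), followed by Psma8, Psmc6, Psme3 and Psmd12, with log2 differences of 0.97, 0.13, 0.13 and 0.11 and edgeR adjusted p of 0.171, 0.193, 0.229 and 0.276. In medium 2 genes were called higher, where 4.16% of all genes were, and 0 were called lower, where 3.95% of all genes were. They were Psmb6, at 122, 110 and 120 CPM in AhR-deficient medium against 107, 96.7, 98.7 and 98.3 CPM in wild-type medium (log2 0.23 ± 0.05; edgeR adjusted p = 0.0243), and Psmd8, a lid subunit, at 201, 174 and 199 CPM against 150, 157, 165 and 176 CPM (log2 0.24 ± 0.07; edgeR adjusted p = 0.0392; groups overlapping). Both calls depended on single libraries: 0 genes were called without the AhR-deficient medium library 4 or 6 or without the wild-type medium library 2, and 8 were called without the AhR-deficient medium library 5 or the wild-type medium library 3. Over all genes the share called higher was 0.385%, 1.78% and 1.25% in the models with 0 calls and 4.22% and 6.02% in those with 8, in the same order. By DESeq2, 9 genes of the set were higher and 0 lower, where 7.06% and 6.36% of all genes were, and by limma-voom with a random block 4 were higher and 0 lower, where 5.14% and 4.18% were. Psma8 had the largest genotype estimate of the set at the lowest level. It was at 2.09, 1.72 and 0.99 CPM in AhR-deficient IL-4 and 1.85, 0.98 and 1.20 in AhR-deficient medium, against 0.71, 0.75, 0.63 and 1.18 in wild-type IL-4 and 0.91, 0.52, 0.56 and 0.29 in wild-type medium. In medium the Psma8 groups stood apart, with a log2 difference of 1.23 ± 0.37 (edgeR adjusted p = 0.0574) that was called without the wild-type medium library 1 (edgeR adjusted p = 0.0416). The median estimate was 0.06 in IL-4 beside -0.0078 for all genes, and 0.12 in medium beside 0.0098. In medium 23 of the 48 had an unadjusted p under 0.05, where 26.5% of all genes did.

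The genes of the immune form had positive genotype estimates in both conditions, 5 of 5 each. In medium the log2 differences were 0.29 for Psmb8, 0.29 for Psmb9, 0.23 for Psmb10, 0.22 for Psme1 and 0.30 for Psme2, and the smallest edgeR adjusted p was that of Psme2 (0.0767). The constitutive Psmb5, at 0.28 ± 0.08 (edgeR adjusted p = 0.055, and 0.0479 by limma-voom with the number as a random block), and Psmb7, at 0.12 ± 0.04 (edgeR adjusted p = 0.106), were also on the AhR-deficient side, and Psmb8 to Psmb5 had the same mean ratio in both genotypes in medium, 1.30 and 1.30. In IL-4 the differences of the immune genes were 0.15 to 0.24, with edgeR adjusted p of 0.17 to 0.534. Single libraries moved these estimates in both directions. Without the AhR-deficient medium library 5, Psmb10 and Psme1 were called higher in medium (edgeR adjusted p = 0.0458 and 0.047). Psme2 was called without that library, and also without the wild-type medium library 3 (edgeR adjusted p as low as 0.0285). The median difference of the 5 genes in medium was 0.29 with all libraries and 0.366 without the AhR-deficient medium library 5. Number 6 carried part of these estimates. Without its medium library the difference in medium was 0.15 for Psmb8, 0.11 for Psmb9, 0.11 for Psmb10, 0.11 for Psme1 and 0.20 for Psme2, and without its IL-4 library the difference in IL-4 was 0.02 for Psmb8, 0.11 for Psmb9, 0.05 for Psmb10, 0.13 for Psme1 and 0.12 for Psme2.

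**Figure D5:**
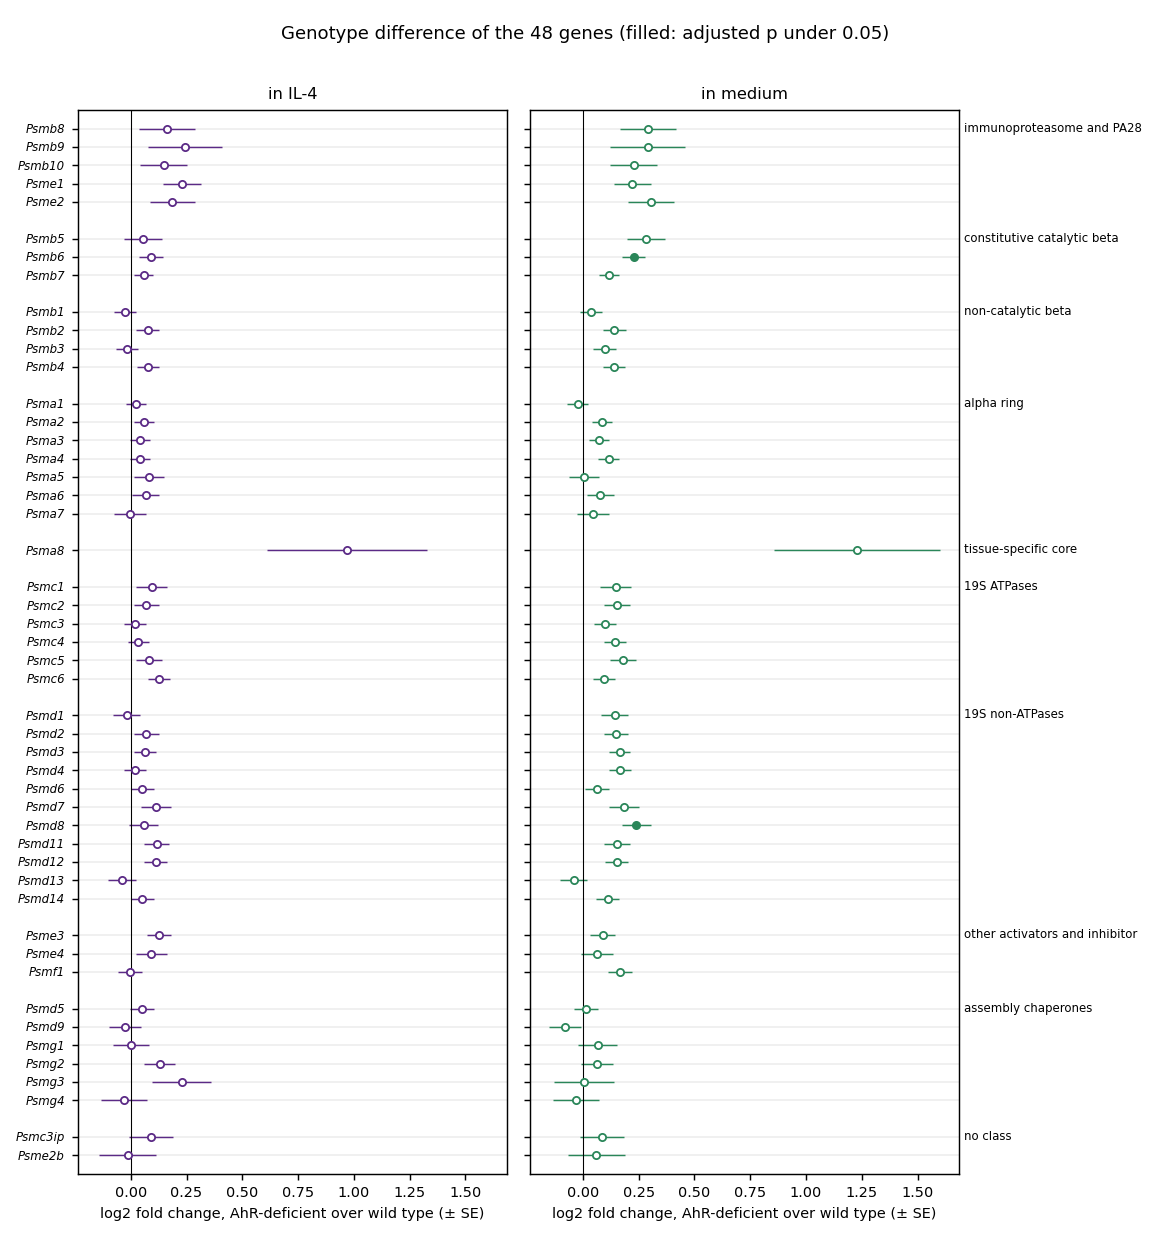
Log2 fold change of AhR-deficient over wild type (x axis, with SE) of the 48 genes by role, in IL-4 (left) and in medium (right). Filled points have an adjusted p under 0.05 in edgeR's quasi-likelihood test; in medium 44 of 48 points lie to the right of 0, with Psmb6 and Psmd8 filled.

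The immune genes also varied more between replicates than the rest. Their pooled replicate SD on the log2 scale was 0.119 to 0.249, with a median of 0.153, beside a median of 0.067 for the other 43 genes, whose SDs ran from 0.045 to 0.544. Number 6 was the highest AhR-deficient library in both conditions for Psmb8, Psmb9, Psmb10, Psme1 and Psme2. The same held for 5 genes of class I presentation (Tap1, Tapbp, B2m, H2-K1 and H2-D1) and for Nlrc5, the transactivator of class I genes. Number 5 was the lowest for all of these but Psmb8 in IL-4, which was lowest in number 4. Of other genes of peptide supply to class I, Tap2, Tapbpl, Erap1 and Pdia3 were also highest in number 6 in both conditions. Calr and Canx were instead lowest in number 6 with IL-4, and Calr in medium was highest in number 4. Canx in medium was highest in number 6 by a small margin (545.6, 545 and 550.6 CPM in numbers 4, 5 and 6).

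Number 6 also had the least granulocyte RNA of its group. The summed level of 9 neutrophil markers was 307 CPM in its IL-4 library, against 506 and 569 CPM in numbers 4 and 5, and 346 CPM in its medium library, against 506 and 674 CPM, with 9 of 9 and 8 of 9 markers lowest there. Over the groups that sum ran from 307 to 569 CPM in AhR-deficient IL-4 and 346 to 674 in AhR-deficient medium, and from 493 to 973 in wild-type IL-4 and 431 to 1107 in wild-type medium. The sum of 5 eosinophil markers ran from 12.06 to 51.4, 11.97 to 61.6, 27.5 to 152 and 26.1 to 119 CPM in the same order of groups. None of these 14 markers was at 0 in any library, and the mean of each was higher in wild type than in AhR-deficient in both conditions. The 4 basophil and mast cell markers were also higher in mean in wild type in both conditions. They were lowest in number 6, where their sum was 17.4 CPM with IL-4, against 41.1 and 52.5 CPM in numbers 4 and 5, and 20.5 CPM in medium, against 44.1 and 55.4 CPM. Markers of myeloid progenitors moved the other way, with 5 of 6 higher in mean in AhR-deficient in IL-4 and 6 of 6 in medium. Their sums ran from 240 to 287 CPM in AhR-deficient IL-4 against 161 to 258 CPM in wild-type IL-4, and from 262 to 304 CPM in AhR-deficient medium against 152 to 247 CPM in wild-type medium, where the groups stood apart. The monocyte sums stood apart in IL-4, where they were lower in AhR-deficient. Of the 8 monocyte markers, however, 6 were higher in mean in AhR-deficient in IL-4 and 2 in wild type. Ccr2 was among the latter 2, at 476.8, 564.5 and 481.9 CPM in AhR-deficient IL-4. In wild-type IL-4 it was at 1658, 1684, 1642 and 1871 CPM, a gap wider than that of the monocyte sums. In medium Ccr2 was at 301.6, 470.6 and 369.9 CPM in AhR-deficient and 1729, 1424, 1478 and 478.2 CPM in wild type. The last value, of number 7, was close to the AhR-deficient ones. The part of basophil, progenitor and monocyte RNA in the genotype differences was not tested. With a granulocyte score as a covariate, the genotype difference in medium was 0.28 for Psmb8, 0.35 for Psmb9, 0.15 for Psmb10, 0.16 for Psme1 and 0.21 for Psme2, none called. In bulk RNA, a different mix of cells and a different level per cell cannot be told apart.

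Genes known to control the proteasome set were listed beside it. For the counts of these and the following lists, the shares of all genes called higher and lower with IL-4 were 15.4% and 14.2% in AhR-deficient and 19.4% and 16.5% in wild type, and 18.4% and 17.8%, and 22.8% and 19.9%, with the block. Of 10 regulators of the constitutive subunits, 4 were called lower and 0 higher with IL-4 in AhR-deficient, and 4 lower and 1 higher in wild type. Nfe2l2, which codes for NRF2, fell by 1.30 ± 0.21 in AhR-deficient (edgeR adjusted p = 3.42e-04) and 1.37 ± 0.19 in wild type (edgeR adjusted p = 4.93e-05) on the log2 scale. Its small MAF partner Mafg fell by 0.73 and 0.54, and Ngly1, the glycanase that processes NRF1, fell by 0.41 and 0.31, in AhR-deficient and wild type (edgeR adjusted p of 0.0021 or less). Nfe2l1, which codes for NRF1, the factor that raises proteasome genes when the protease is inhibited, fell by 0.50 ± 0.18 in AhR-deficient (edgeR adjusted p = 0.0487). In wild type its change was -0.28 ± 0.16 without the block (edgeR adjusted p = 0.185) and -0.26 with it (edgeR adjusted p = 0.0196).

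Of 12 regulators of the immunoproteasome genes, 3 were called higher and 0 lower in AhR-deficient, and 5 higher and 1 lower in wild type. Jak2, a kinase of the interferon-gamma receptor, rose by 0.95 ± 0.14 in AhR-deficient (edgeR adjusted p = 1.79e-04) and 1.14 ± 0.13 in wild type (edgeR adjusted p = 6.35e-06). Irf1, an activator of Psmb9, rose by 0.59 ± 0.17 in wild type (edgeR adjusted p = 0.0142) and was at 0.50 ± 0.19 in AhR-deficient without the block (edgeR adjusted p = 0.0715) and 0.52 with it (edgeR adjusted p = 0.00581). With the block, 4 regulators were higher and 3 lower in AhR-deficient, and 5 higher and 3 lower in wild type. Between genotypes in medium, 1 of the 12 was called higher and 1 lower, where 4.16% and 3.95% of all genes were. Nlrc5 was higher in AhR-deficient than in wild-type medium by 0.72 ± 0.17 (edgeR adjusted p = 0.0238). Ifngr1, a chain of the interferon-gamma receptor, was lower, averaging 428.5 ± 47 CPM (SD, n = 3) in AhR-deficient medium and 611.1 ± 68.5 CPM (SD, n = 4) in wild-type medium (log2 -0.51 ± 0.10; edgeR adjusted p = 0.0106).

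Of 11 proteasome-associated enzymes and shuttles, 4 were called higher and 1 lower with IL-4 in AhR-deficient, and 6 higher and 0 lower in wild type. Rad23b, a shuttle that carries ubiquitin-tagged proteins to the cap, rose by 0.21 and 0.27, and Usp14, a deubiquitinase of the cap, rose by 0.23 and 0.24, in AhR-deficient and wild type. The X-linked Psmd10, an assembly chaperone outside the set, fell by 0.27 ± 0.07 in AhR-deficient (edgeR adjusted p = 0.00953). In wild type Psmd10 had the only negative estimate of these 11 genes (log2 -0.14) and was not called without the block. With the block, 4 of the 11 were higher and 1 lower in AhR-deficient, and 7 higher and 1 lower in wild type. Of 3 further subunits and factors outside the symbol pattern, Sem1, a small lid subunit, fell by 0.19 ± 0.06 in AhR-deficient (edgeR adjusted p = 0.0189), while Adrm1 and Pomp were not called in either genotype. Of 11 genes of peptide supply to class I, 1 was higher and 2 lower in AhR-deficient and 3 higher and 2 lower in wild type. Between genotypes in medium, 4 of these 11 were called higher and 0 lower, where 4.16% and 3.95% of all genes were. H2-K1 was among the 4, higher by 0.56 ± 0.12 (edgeR adjusted p = 0.0199), and like Nlrc5 was highest in number 6 within its group. Erap1, a peptide trimming enzyme, rose by 0.23 and 0.18 in AhR-deficient and wild type. H2-D1, a class I heavy chain, fell by 0.31 and 0.27. With the block 2 were higher and 3 lower in AhR-deficient and 4 higher and 4 lower in wild type. Of 6 ubiquitin genes, 0 were higher and 1 lower in AhR-deficient and 1 higher and 2 lower in wild type, and with the block 3 were lower in AhR-deficient and 4 in wild type.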

How the data were processed

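The deposited values are raw read counts per gene in 14 libraries, 1 column each, made by the authors. Per the submitters' processing notes, FastQC, STAR and mm10 were used, with no versions. Of the counting step, the program, the annotation and the strand setting were not given in the sources used here. Of 55487 identifiers, 55394 matched GENCODE M21 (GRCm38) without their version, which gave symbols, positions and transcript lengths.

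The tests ran in edgeR 4.0.16 (R 4.3.3). filterByExpr kept 14754 genes and libraries were TMM-scaled. All 14 libraries entered a single quasi-likelihood model with a mean for each group, leaving 10 residual degrees of freedom, and 5 contrasts were taken from it, with Benjamini-Hochberg adjustment over all genes kept and calls at an adjusted p under 0.05. All 48 genes of the set passed the filter. The steps were tested on simulated data.

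Libraries of the same number were taken as pairs. After removal of group means the IL-4 and medium libraries of a number correlated at r of 0.17 to 0.706 over 10575 genes, and each matched its own number best, in 7 of 7 numbers. The 0.17 was that of number 7, and the next lowest was 0.486 (number 2). Neutrophil marker sums in number 7 were 798 CPM with IL-4 and 431 CPM in medium. Its log2 IL-4 changes of Psmb8 (0.411) and Psmb9 (0.673) were the largest of the wild-type numbers. The block is given where it changes a call. It cannot be fixed in genotype contrasts, since no number occurs in both genotypes, and a random block was used there.

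Members and lists were chosen with earlier results of these data known. Named were the 5 immune genes, Psmb5, Psmb6, Psmb7 and Ahr, up to 12 called genes per direction, the 5 with smallest p where none was called, and up to 4 of each other list. Genes whose call changes with the block, Psmc4, Psmd2 and unchanged members were named after their values were seen.

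The settings varied were the scaling, the tool (DESeq2 1.42.0, limma-voom 3.58.1), the filter, autosomal genes, only the groups compared, the blocks, a granulocyte score (neutrophil and eosinophil markers) as covariate, single libraries left out, and numbers 1 and 2 left out. Replicates spread more than counting error, so errors come from replicates. Paaf1 was not matched. One promoter motif is not reported here.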

Additional observations from a re-analysis of the deposited data

Results flagged for a closer look

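In the wild-type groups of 4 libraries, the highest and lowest values of the 48 genes and of the 4 ratios were compared with the other 3 libraries by Dixon's criterion, which chance meets in about 1 of 20 groups. It was met in 7 of 104 groups. With IL-4, number 3 stood apart for Psmd1, a scaffold of the cap's base, at 104.4 CPM against 101 to 102 in the others. Number 1 stood apart there for Psmd13, a lid subunit, at 116 CPM against 108 to 109, and for Psmd14, the lid's deubiquitinase, at 85.91 CPM against 82.2 to 82.8. In medium, number 1 stood apart for Psma7 at 241.8 CPM against 202 to 207, for Psmb1 at 169.5 CPM against 151 to 154 and for Psmd13 at 120.6 CPM against 102 to 105. Number 3 stood apart in medium for Psmd14 at 81.24 CPM against 74.4 to 75.5. Number 1 was the high library in 5 of the 7. It was also among the libraries with the most granulocyte RNA (neutrophil marker sums of 973 CPM with IL-4 and 1107 CPM in medium), and the part of this in its values was not tested. Groups of 3 were not examined in this way.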

How the results depend on the processing

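The count of genes called higher with IL-4 stayed within 1.5 times of 9 in AhR-deficient under the alternatives that keep all libraries, and of 14 in wild type. In AhR-deficient it was 5 to 9 with 1 library left out. In wild type it was 9 without numbers 1 and 2 (the same 9 genes as in AhR-deficient) and 11 to 14 with 1 library left out. The count called lower in AhR-deficient, 0, became 1 with upper quartile scaling, with only the groups compared or with the granulocyte covariate, 2 without numbers 1 and 2, 5 with the replicate block, with or without those numbers, and 0 to 3 with 1 library left out (3 without medium library 5, where 5 were higher). In wild type the count lower was 2 with the block, 0 without numbers 1 and 2 and 0 to 2 with 1 library left out. In the block model with a number left out, chosen like the block without numbers 1 and 2 after seeing the data, 6 to 9 were higher and 1 to 4 lower in AhR-deficient, and 16 to 18 and 2 to 3 in wild type, where 13.3% to 13.9% and 12.2% to 13.1% of all genes were in AhR-deficient and 18.5% to 20.8% and 17.3% to 19.8% in wild type. Of the genotype difference in medium, 2 genes in the main model, 9 were called by DESeq2, 4 by limma-voom with a random block (Psmd4 and Psmb5 added), 1 with the granulocyte covariate, 0 with no filter, with only the groups compared or without numbers 1 and 2, and 0 to 8 with 1 library left out. The share of all genes called higher, 4.16% in the main model, was 7.06% by DESeq2, 5.14% with the random block, 0.901% with the covariate, 1.9% with no filter, 0.235% with only the groups compared and 0.142% without numbers 1 and 2. Both the interaction and the genotype difference in IL-4 gave 0 calls in the set under all alternatives run, the block included. Apart from the calls and list counts given in the report, the block changed no call among the genes described. The genes called in every leave-one-out model were 5 of 9 in AhR-deficient (Psmg1, Psme4, Psmg2, Psme3 and Psma3), 10 of 15 in wild type and 0 of 2 between genotypes in medium. No named gene reversed its sign where called. With 3 or 4 libraries a group, spread between replicates and not depth set the precision.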
